A study of Mus musculus with 49 samples.

Results

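The genes described are Cux1, Cux2, Rorb, Lhx2, Pou3f2, Mdga1 and Id2, taken as a list of genes known from neurons of the superficial cortical layers and from neurons that project within the cortex. All 7 genes of the list are rows of the deposited table, so none was absent, and they are 7 of its 9020 genes. Each gene of the table reached 100 RPM (its reads scaled to a common total per cell) in at least 2 cells, so a gene could be counted here only if it was high in a few cells. They were described across all 49 cells, single neurons of the primary somatosensory cortex (S1) of wild-type CD1 mice that had received FlashTag (FT) on E13.5 and were sampled on P7. FT is a fluorescent dye injected into the ventricles of the embryonic brain that marks cells dividing at the ventricular surface at that moment, and the brightest labelled neurons were aspirated through a patch pipette (Patchseq). The cells form a single condition and a single birthdate. The labels assign every cell to a library pool, but they give neither its animal nor its radial position, so they were treated as a single sample without any test or p-value.

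Neurons of the cerebral cortex are grouped by the layer in which they settle and by the target of their axon. Neurons of layers 2 and 3 send axons mainly to other cortical areas and across the corpus callosum, and those of layer 4 receive thalamic input and connect locally, whereas neurons of the deep layers project largely to the thalamus, brainstem and spinal cord. CUX1 and CUX2 are related homeodomain transcription factors of the upper layers, where they shape dendrites, spines and synapses. RORB is a nuclear receptor that marks layer 4, LHX2 is a LIM-homeodomain factor first needed in cortical progenitors, POU3F2 (BRN2) is a POU factor of progenitors and upper-layer neurons, MDGA1 is a GPI-anchored protein of the cell surface, and ID2 is a helix-loop-helix protein without a DNA-binding region that inhibits bHLH factors.

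The depth recovered from the table was 209850 reads in the shallowest cell, 1240101 at the median and 35342325 in the deepest, so that 1 read stood for 0.0283 RPM in the deepest cell and 4.77 RPM in the shallowest. The 12 cells of pool 1 had a median of 9870201 reads and the pools of 9, 9, 9 and 10 cells had medians between 814366 and 1409643. All 49 cells had at least 5 of 6 pan-neuronal markers (Snap25, Syt1, Stmn2, Map2, Rbfox3 and Tubb3) at 10 RPM or more, which is what the label "neurons" calls for. A cell of pool 3 stood apart, with 68.8% of its reads on 4 haemoglobin genes, and of the 7 genes it had only Id2 at 10 RPM or more. Reads may also pass between cells of a pool, which is called exchange here. The values below do not tell exchange apart from low expression in the cell itself. Over 84 genes that reached 100 RPM in exactly 2 cells and stayed under 10 RPM in all others, a cell held on average 0.177% of the reads of the source cells in its pool, and the 99th percentile was 3.73%. A gene was counted at 2 limits, at least 1 read and at least 10 RPM, and neither guards fully against exchange. At 10 RPM, 18 of 26 cells with Cux1, 18 of 24 with Cux2 and 18 of 30 with Rorb lay above this 99th percentile. The numbers were 18 of 19 for Lhx2, 17 of 19 for Pou3f2, 10 of 11 for Mdga1 and 22 of 36 for Id2. Counts of combinations, pairs and deep markers use the limit of 10 RPM.

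The genes lie on 6 chromosomes of GRCm38 (GENCODE M21). Cux1 is at chr5:136248135-136567490 and Cux2 at chr5:121856366-122050102, both on the minus strand. Rorb is at chr19:18930605-19111196 (minus), Lhx2 at chr2:38339281-38369733 (plus), Pou3f2 at chr4:22482780-22488366 (minus), Mdga1 at chr17:29827949-29970087 (minus) and Id2 at chr12:25093799-25097140 (minus). Since the kit reads 3′ ends, a value belongs to the ends of a gene's transcripts. The protein-coding transcripts of Cux1 have 5 ends more than 1000 bases apart, spread over 65099 bases, and the table gives a single value for all of them. The forms of Cux1 with and without its homeodomain could therefore not be told apart. Pou3f2 has a single end.

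CUX1 was first described as the CCAAT displacement protein, so the 250 bases before the RefSeq start sites of the 7 genes (GRCm38.p6) were searched for CCAAT on both strands (CCAAT or ATTGG). Of 32851 promoters of the same length, 33.8% held at least 1 match, 10.1% at least 2 and 2.79% at least 3. Matches were found before the start sites of Id2 (3), Pou3f2 (2) and Rorb (1 of its 2 listed start sites), and none in the windows of Cux1, Cux2, Lhx2 and Mdga1. The windows of Rorb and Pou3f2 are shown whole because they hold the letters, and that of Lhx2 because its level followed that of Rorb most closely among the 7 genes. They are written 5′ to 3′ on the strand of the gene, with the matches in capitals.
Rorb, chr19:19111197-19111446, minus strand: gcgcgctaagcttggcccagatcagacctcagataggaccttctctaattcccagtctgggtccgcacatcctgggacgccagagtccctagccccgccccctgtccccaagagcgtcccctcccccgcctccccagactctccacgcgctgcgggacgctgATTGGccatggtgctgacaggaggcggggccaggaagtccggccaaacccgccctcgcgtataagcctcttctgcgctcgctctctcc
Lhx2, chr2:38339031-38339280, plus strand: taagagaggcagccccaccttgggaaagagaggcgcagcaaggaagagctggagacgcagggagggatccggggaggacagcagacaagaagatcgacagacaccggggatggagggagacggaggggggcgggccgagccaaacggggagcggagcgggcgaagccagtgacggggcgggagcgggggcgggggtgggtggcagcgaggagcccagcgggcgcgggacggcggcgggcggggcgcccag
Pou3f2, chr4:22488367-22488616, minus strand: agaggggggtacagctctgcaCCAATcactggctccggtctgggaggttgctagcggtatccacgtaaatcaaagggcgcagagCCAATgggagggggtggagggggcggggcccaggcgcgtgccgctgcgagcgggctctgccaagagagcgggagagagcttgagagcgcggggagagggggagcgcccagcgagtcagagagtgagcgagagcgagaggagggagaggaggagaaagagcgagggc

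For Id2, 161 of the 250 bases are also annotated as a noncoding stretch of an exon in a longer Id2 transcript, so only 25 bases around each match are shown, counted by the distance of the match's first base from the start site.
Id2 at -159, chr12:25096237-25096261, minus strand: ccctacaggcATTGGctgcgaacgc
Id2 at -120, chr12:25096198-25096222, minus strand: ctcatactcaCCAATgggagaattc
Id2 at -76, chr12:25096154-25096178, minus strand: agcccttccaCCAATggcaattcag
A match of letters is a description of the sequence and not a binding site. Binding was not measured in these cells.

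Cux1 was high in some of these early-born neurons and close to background in others. At least 1 read was found in 42 of 49 cells (85.7%, with 95% limits of 72.8% and 94.1% by the exact Clopper-Pearson method), but only 26 cells reached 10 RPM and 16 reached 100 RPM. The lowest value was 0, the median 21.8 RPM (order-statistic interval 2.84 to 44.8) and the highest 804 RPM, in cell 11 of pool 1, where 11127 reads stood behind it. The median was 3.97 RPM without pool 5 and 36.7 RPM without pool 4. The next cell held 719 RPM. All intervals of shares given here take in counting error alone. The 5 highest cells held 51.5% of the RPM summed over all cells. The pool medians rose in the order of pools 4, 2, 1, 5 and 3, from 0.88 through 3.16, 24.1 and 95.8 to 119 RPM, and the ranges of all 5 pools overlapped. Only 18 cells lay above the 99th percentile of exchange, and all 18 were among the 26 cells at 10 RPM.

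Cux2, the paralogue of Cux1, was found in nearly every cell, mostly at a low level. At least 1 read was present in 46 of 49 cells (93.9%, interval 83.1% to 98.7%), 24 cells reached 10 RPM and 6 reached 100 RPM. The lowest value was 0, the median 9.53 RPM (interval 4.52 to 35.4) and the highest 527 RPM, in cell 2 of pool 2, where Cux1 was at 3.16 RPM. Cell 6 of pool 2 was alike, with 377 RPM of Cux2 and 2.84 RPM of Cux1. Without pool 4, the median of Cux2 was 15.7 RPM. Both genes were at 10 RPM or more in 17 cells, Cux1 alone in 9, Cux2 alone in 7 and neither in 16. If the genes were distributed without regard to each other, 12.7 cells would hold both. The paralogues therefore shared many cells, while 16 cells had only 1 of them. The pool medians of Cux2 lay between 2.49 RPM (pool 4) and 26.6 RPM (pool 2), with overlapping ranges.

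Rorb was found in 48 of 49 cells (98.0%, interval 89.1% to 99.9%), at 10 RPM or more in 30 and at 100 RPM or more in 17. The lowest value was 0, the median 35.5 RPM (interval 9.21 to 58.8) and the highest 1609 RPM, in cell 5 of pool 4. Cell 11 of pool 1, the cell with the most Cux1, held 1600 RPM, and cell 2 of pool 5 held 1107 RPM. Pool 3 differed in level, since 2 of its 9 cells reached 10 RPM and its highest cell held 98.0 RPM, whereas the highest cell of each other pool held between 674 and 1609 RPM. The pool medians rose in the order of pools 3, 4, 1, 5 and 2, the last 3 being 43.2, 58.0 and 136 RPM. The range of pool 3 overlapped with that of every other pool. The median over all cells was 54.4 RPM without pool 3, 22.3 RPM without pool 1 and 17.6 RPM without pool 5.

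Lhx2 was high in a minority of the cells. At least 1 read was found in 35 of 49 cells (71.4%, interval 56.7% to 83.4%), 19 cells reached 10 RPM and 12 of these reached 100 RPM. The lowest value was 0, the median 3.60 RPM (interval 1.46 to 23.8) and the highest 637 RPM, in cell 7 of pool 4. Among the cells at 10 RPM or more, the median was 131 RPM. Over all cells, Lhx2 had the highest Spearman correlation of the 7 genes with the logarithm of the reads per cell (0.32), against values between -0.13 and 0.17 for the others. With ranks taken within pools it stood at 0.24, below Cux1 at 0.28. The part of depth in the Lhx2 values was not tested.

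Pou3f2 and Mdga1 were found in fewer cells than Rorb and Id2. Pou3f2 was found in 37 cells (75.5%, interval 61.1% to 86.7%), at 10 RPM or more in 19 and at 100 RPM or more in 10, with a lowest value of 0, a median of 3.45 RPM (interval 1.30 to 18.6) and a highest value of 739 RPM in cell 3 of pool 5. In pool 4, 2 of 9 cells had a read of Pou3f2, and both exceeded 100 RPM. Mdga1, which takes part in the migration of superficial neurons, was found in 30 cells (61.2%, interval 46.2% to 74.8%), at 10 RPM or more in 11 and at 100 RPM or more in 4. Its lowest value was 0, its median 0.482 RPM (interval 0 to 3.23) and its highest 274 RPM, again in cell 3 of pool 5. The 5 highest cells held 76.6% of the Mdga1 RPM summed over the cells. Detection of Mdga1 moved with the pool, with a read in all 12 cells of pool 1, the deepest, 1 of 9 in pool 2 and 2 of 9 in pool 4. A read was found in 7 of 9 cells of pool 3 and in 8 of 10 of pool 5, the pool with the lowest median depth. Its median was 0 without pool 1, 0.95 RPM without pool 2 and 0.832 RPM without pool 4.

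Id2 had a read in every cell (49 of 49, interval 92.7% to 100%), as did 8.1% of the 9020 genes, and it was the only such gene among the 7. It reached 10 RPM in 36 cells and 100 RPM in 23. The lowest value was 1.58 RPM, the median 79.3 RPM (interval 45.1 to 167) and the highest 913 RPM, in cell 2 of pool 2, the same cell that had the highest Cux2. The next value was 689 RPM, in cell 5 of pool 5. The 5 highest cells held 38.7% of the summed RPM, so Id2 was spread over more cells than the other genes. Its pool medians ranged from 45.8 RPM in pool 1 to 229 RPM in pool 2, and the ranges of the pools overlapped. Without pool 1, the median over the cells was 155 RPM.

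**Figure D1:**
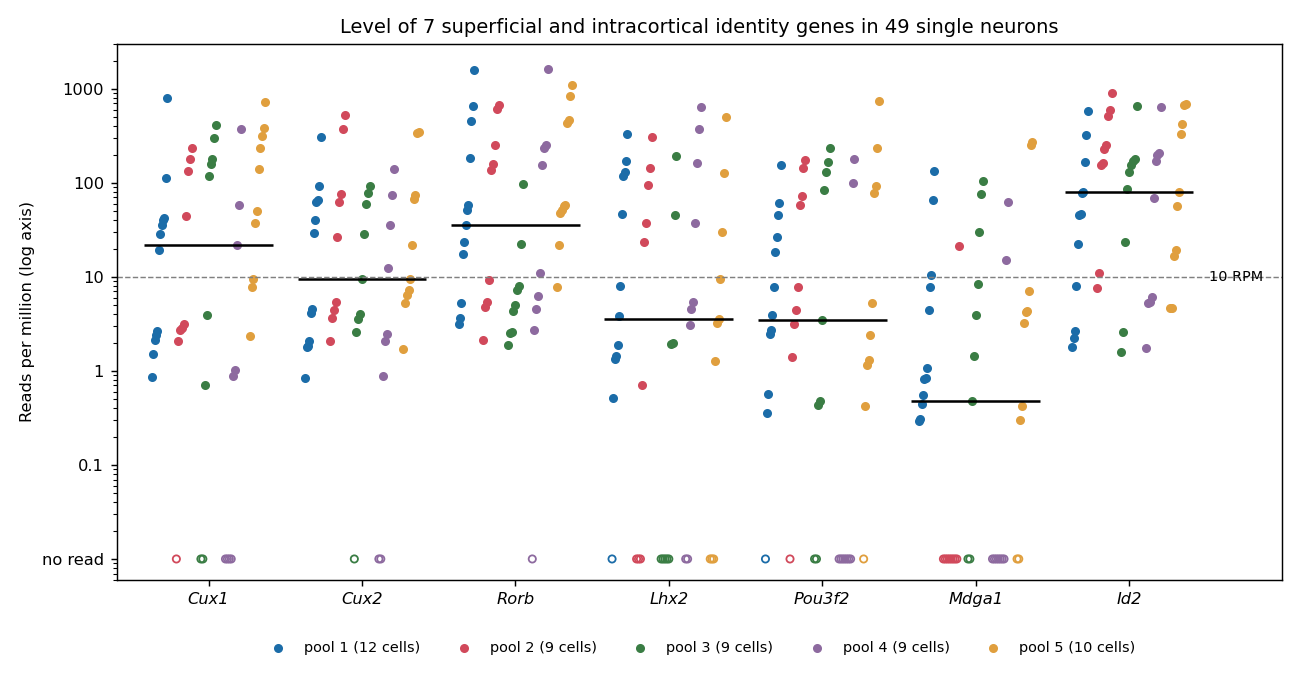
RPM (log axis) of each gene in each of the 49 cells, with points coloured by library pool, open points for cells without a read, black lines for the medians over all cells and a dashed line at 10 RPM. Each gene has cells above 100 RPM in at least 3 pools and, except for Id2, cells without a read, and the pools overlap.

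The order of the genes by the share of cells with a read was Id2, Rorb, Cux2, Cux1, Pou3f2, Lhx2 and Mdga1, and neighbours in this order had overlapping intervals. Because only transcript ends are read, these shares were not divided by gene length. When 44 cells were thinned to 358412 reads each, the mean share with a read was 93.3% for Id2, 92.7% for Rorb, 78.8% for Cux2, 74.4% for Cux1, 63.1% for Lhx2, 61.4% for Pou3f2 and 42.3% for Mdga1, which left the order unchanged but for Lhx2 and Pou3f2. Of the 7 genes, Cux1, Cux2, Rorb and Id2 reached 10 RPM in at least 24 cells, as did 40.6% of all genes in the table. A count of 4 among 7 is too near this background to set the genes apart.

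Cells differed widely in how many of the 7 genes they held. At 10 RPM or more, 1 cell had none of them, 5 cells had 1, 11 had 2, 12 had 3, 8 had 4, 4 had 5, 6 had 6 and 2 had all 7. Of the 128 possible combinations, 36 were seen, and 27 of these were held by a single cell. The most frequent was every gene but Mdga1, in 4 cells, followed by Id2 alone and by Rorb with Id2, in 3 cells each. The cell without any of them was cell 1 of pool 4, which held 507 RPM of Tbr1, a transcription factor of layer 6 neurons, and 278 RPM of Bcl11b (Ctip2), a factor of layer 5 neurons. This cell had 366983 reads, with 11.6% of them on haemoglobin genes. It had a read for 3435 genes, where the median over all cells was 6601. The part of this low capture in the absence of the 7 genes was not tested.

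The 2 cells with all 7 genes were cell 11 of pool 1 and cell 3 of pool 2, and both were deeply sequenced, with 13841649 and 12419177 reads. In cell 11 of pool 1, the genes stood at 804 RPM for Cux1, 306 for Cux2, 1600 for Rorb, 332 for Lhx2, 154 for Pou3f2, 134 for Mdga1 and 45.1 for Id2. In cell 3 of pool 2, they stood at 181, 62.1, 136, 23.8, 58.4, 21.3 and 519 RPM in the same order. The cells with 5 of the genes had between 225363 and 858030 reads. In the shallowest of these, cell 12 of pool 1, Cux1, Cux2, Rorb, Pou3f2 and Id2 rested on 9, 9, 8, 6 and 5 reads. The part of exchange within this deep pool in these calls was not tested. Over all cells, the number of genes held had a Spearman correlation of 0.17 with the logarithm of the reads. A contribution of depth to the number was not tested further.

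**Figure D2:**
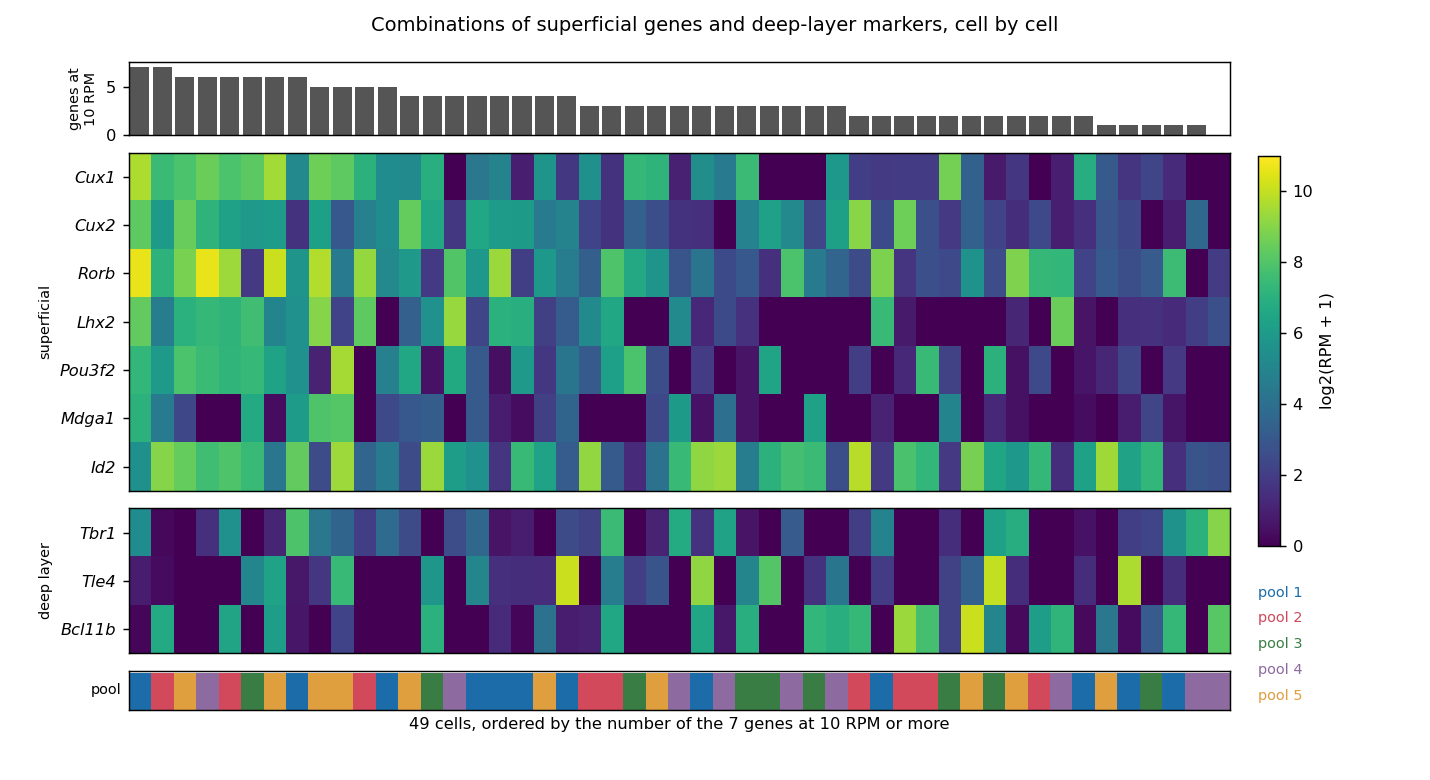
Level as log2(RPM + 1) of the 7 genes and of 3 deep-layer markers (rows) in each of the 49 cells (columns), ordered by how many of the 7 genes reached 10 RPM (grey bars), with the library pool below. The number falls from 7 to 0 from left to right, while cells with Tbr1, Tle4 or Bcl11b occur along the whole order.

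At least 1 of 3 deep-layer markers was common in cells that held genes of the list. Other genes of layers 5 and 6 were not counted here, and they went both ways. With Cux1, the layer 5 gene Fezf2 shared 3 cells at 10 RPM, against 6.90 if unrelated. The layer 6 gene Ntsr1 shared 9 cells with Cux1, against 5.31. Tbr1, Tle4 (a corepressor of layer 6 corticothalamic neurons) or Bcl11b was at 10 RPM or more in 35 of 49 cells (71.4%, interval 56.7% to 83.4%). The same held for 16 of the 26 cells with Cux1 (61.5%, interval 40.6% to 79.8%), 17 of 24 with Cux2 (70.8%, 48.9% to 87.4%) and 21 of 30 with Rorb (70.0%, 50.6% to 85.3%). It held for 12 of 19 with Lhx2 (63.2%, 38.4% to 83.7%), 13 of 19 with Pou3f2 (68.4%, 43.4% to 87.4%), 10 of 11 with Mdga1 (90.9%, 58.7% to 99.8%) and 26 of 36 with Id2 (72.2%, 54.8% to 85.8%). Each of these intervals included the share of all cells. As all cells include those counted, this does not compare cells with a gene to cells without it. Such a difference was not tested. The 35 cells with a deep marker held between 0 and 7 of the 7 genes, with a median of 3. The 14 cells without held between 1 and 6, with a median of 3.5. These numbers include Id2, which stood at -0.10 with the list of other superficial genes described below. Within single cells, cell 2 of pool 5 held 719 RPM of Cux1 and 1107 RPM of Rorb beside 79.1 RPM of Tle4 and 70.7 RPM of Bcl11b, and cell 3 of pool 5 held 739 RPM of Pou3f2 and 274 RPM of Mdga1 beside 168 RPM of Tle4.

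Across cells, most pairs of the genes other than Id2 had weakly positive correlations. Over the 49 cells, which share library pools and differ in depth, the Spearman correlation was above 0 for 19 of the 21 pairs, and its median was 0.13. Without Id2, 15 of 15 pairs were above 0, with a median of 0.20, and the 6 pairs with Id2 had a median of 0.042. Of the 15, Rorb with Mdga1 (0.00) and Cux2 with Mdga1 (0.01) were near 0. These pairs stood at -0.14 and -0.10 at equal depth and at -0.09 and -0.04 without pool 1, and 12 of the 15 pairs were above 0 without pool 5. The 5 pairs at 0.3 or more were Rorb with Lhx2 (0.42), Cux1 with Cux2 (0.39), Cux1 with Mdga1 (0.37), Cux1 with Pou3f2 (0.35) and Cux2 with Pou3f2 (0.34). With ranks taken within pools, the same pairs stood at 0.44, 0.26, 0.35, 0.23 and 0.24. These are descriptions without a test, and most of the values are weak for sparse counts.

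The correlation of each gene with the others was read beside that of every gene with a read in at least 25 cells, 7268 genes in each case. At 0.3 or more, Cux1 had 3 of the 6 other genes and 9.05% of all genes, Cux2 had 2 of 6 and 1.66%, and Rorb had 1 of 6 and 3.48%. Lhx2 had 1 of 6 and 7.33%, Pou3f2 had 2 of 6 and 7.91%, Mdga1 had 1 of 6 and 5.24%, and Id2 had 0 of 6 and 3.07%. The median correlation with the 6 others was 0.32 for Cux1, where that with all genes was 0.095, whereas for Id2 the values were 0.042 and 0.033. For Mdga1, the median over the other 6 (0.071) was close to that over all genes (0.048).

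Rorb and Lhx2 shared their high cells. Both were at 100 RPM or more in 10 cells, where 4.16 would be found if they were unrelated, so that 10 of the 12 cells with Lhx2 at this level also had Rorb at this level. At 10 RPM, they shared 14 cells against 11.6. The remaining cells with high Lhx2 were cell 4 of pool 1 (119 RPM, with 3.12 RPM of Rorb) and cell 2 of pool 3 (194 RPM, with 2.54 RPM of Rorb). The correlation of the pair was 0.57 at equal depth and stayed between 0.34 and 0.53 when each pool was left out in turn.

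Rorb and Id2 moved apart, though weakly. Their Spearman correlation was -0.27, the lowest of the 21, and it was -0.40 within pools, -0.34 at equal depth and between -0.43 and -0.17 when each pool was left out. Both genes reached 10 RPM in 20 cells, against 22.04 if unrelated. The cells at both ends show it. Cell 2 of pool 2 had 913 RPM of Id2 and 4.75 RPM of Rorb, and cell 3 of pool 3 had 649 and 2.62 RPM. Cell 6 of pool 1 had 2.25 RPM of Id2 and 658 RPM of Rorb, and cell 6 of pool 5 had 4.66 and 846 RPM. Cell 5 of pool 4, with the highest Rorb, nevertheless held 197 RPM of Id2, so high levels of both did occur.

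Counted at 10 RPM, 18 of the 21 pairs shared more cells than if unrelated. The number was 18 at 100 RPM but 11 at 1 read and 11 at 1 RPM. Id2 had a read and at least 1 RPM in all 49 cells, so at these limits its 6 pairs equal the number if unrelated by construction, and the 11 are of the other 15 pairs. When each pool was left out in turn, the number at 10 RPM lay between 15 and 19. The same count was not made over other pairs of genes in the table, so the 18 of 21 has no background. The median Spearman correlation with all genes tested was positive for every gene of the list, from 0.011 for Cux2 to 0.095 for Cux1. Whether the excess of shared cells is particular to these pairs was not tested.

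**Figure D3:**
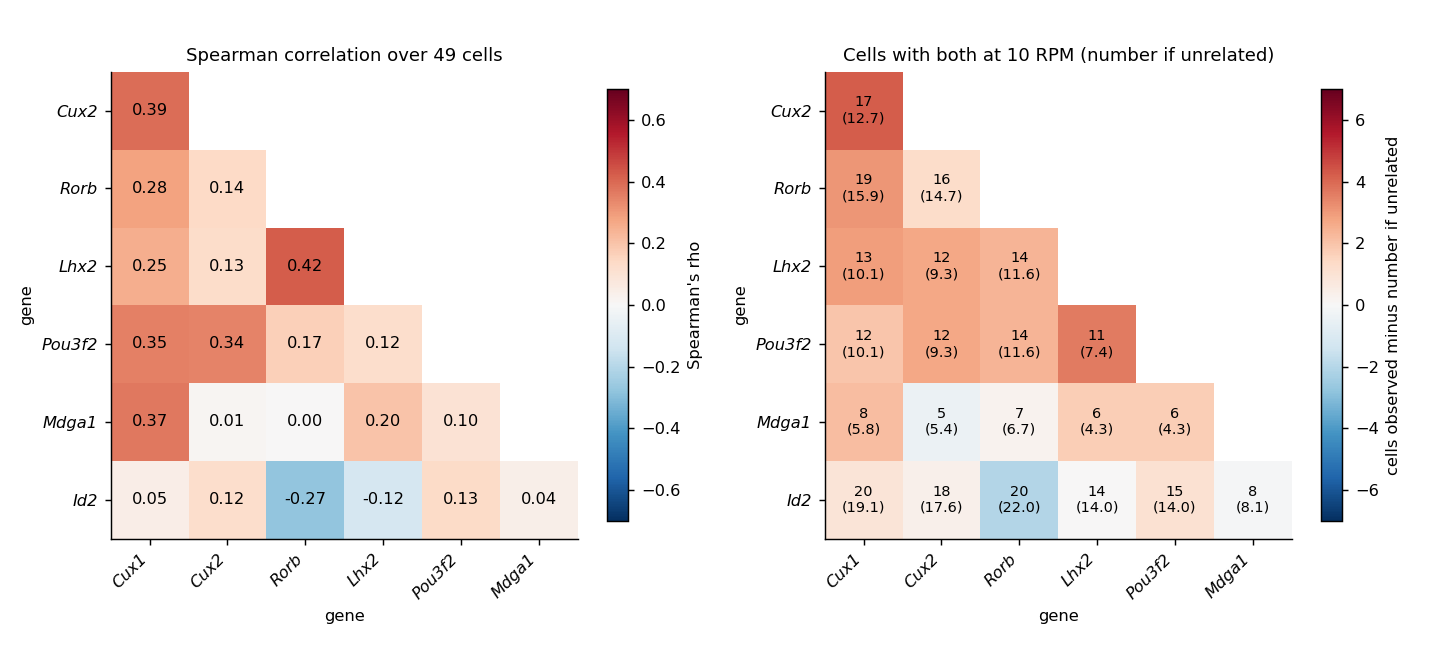
Spearman correlation over 49 cells for each pair of the 7 genes (left) and the number of cells with both genes at 10 RPM or more, with the number if they were unrelated in parentheses (right). Rorb with Lhx2 and Cux1 with Cux2 have the highest correlations, 0.42 and 0.39, and Rorb with Id2 the lowest, -0.27.

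**Figure D4:**
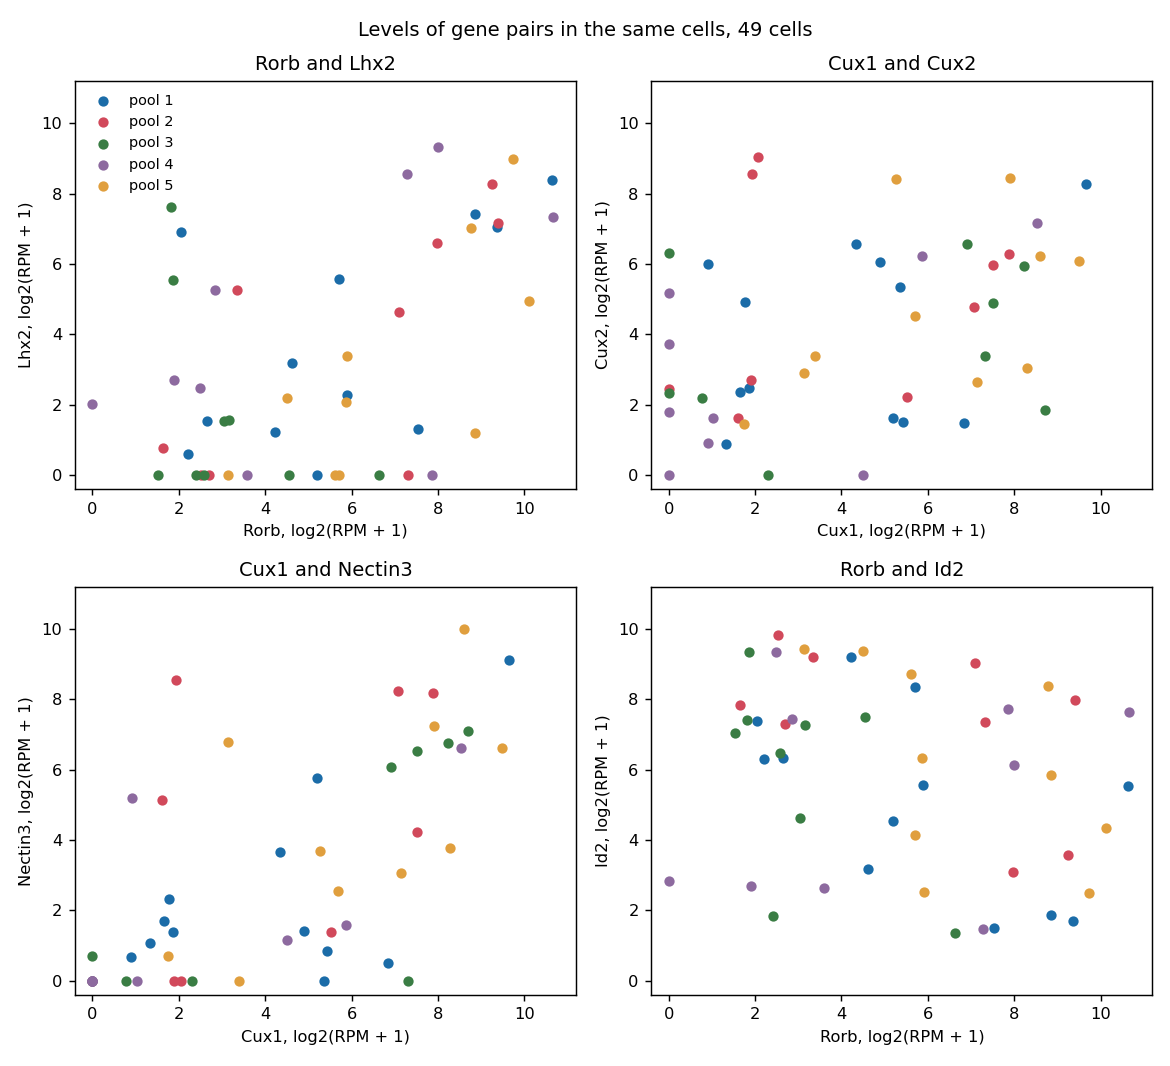
Level as log2(RPM + 1) of 4 pairs of genes, with a point for each of the 49 cells coloured by library pool. High Lhx2 occurs mostly with high Rorb, Cux1 and Nectin3 rise together (Spearman 0.68), Cux1 and Cux2 share high cells but each also occurs without the other, and Rorb and Id2 lean apart.

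The genes with the pattern most like that of each were listed by Spearman correlation over the 49 cells, among genes with a read in at least 25 cells. For Cux1, the first was Nectin3 (0.68), a cell adhesion molecule known from upper-layer neurons, followed by Shisa6 (0.63), an auxiliary subunit of AMPA receptors, and Lims1 (0.58). Cux1 and Nectin3 were both at 10 RPM or more in 16 cells, against 10.6 if unrelated, and within pools the correlation was 0.48. Cux2 was the 161st of the 7268 genes in the order of likeness to Cux1. The genes least like Cux1 included Nub1 (-0.46) and Neurod6 (-0.42), a bHLH factor of excitatory neurons.

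For Cux2, the first were Zbtb20 (0.49), a zinc finger repressor, Mfsd2a (0.48), a lipid transporter, Pou3f1 (0.47), a POU factor related to Pou3f2, and the noncoding RNA Pantr1 (0.46). Cux2 and Pou3f1 shared 19 cells at 10 RPM, against 10.8 if unrelated, and Cux1 was the 24th gene in this order. Neurod6 was the least like (-0.47), with 36 cells at 10 RPM. The part that the pool had in these orders was read from ranks within pools, under which 5 of the 10 genes first for Cux2 stayed among the first 10, but 2 of 10 for Cux1.

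For Rorb, the first included Asphd2 (0.63), Ptn (0.60), which encodes the growth factor pleiotrophin, 2900055J20Rik (0.57), Satb1 (0.55), a chromatin organiser, and Rora (0.54), the related nuclear receptor. For Lhx2, they were Snx7 (0.69), a sorting nexin, Camk2a (0.62), a kinase of excitatory synapses, 2900055J20Rik (0.58), Fkbp1b (0.57), Cdh12 (0.56) and Rasgrf2 (0.55). The gene 2900055J20Rik was thus among the first 10 of both Rorb and Lhx2. The least like was Gng2 (-0.49) for Rorb and Atp5k (-0.50) for Lhx2.

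For Pou3f2, the first was Fam120b (0.62), followed by Caml and Wdr12 (both 0.55), and none of these is a known layer marker. For Mdga1, the first was Fnip1 (0.59), and the neuropeptide genes Penk (0.53) and Vip (0.52) were among the first 10. Within pools these fell to 0.32 and 0.22, and 0 of the 10 genes stayed among the first 10. For Id2, the first were Commd3 (0.57), Gm2a (0.53) and, as a gene of the immediate early response, Ier2 (0.48), which stood at 0.54 within pools, and the least like was Adgrl1 (-0.50).

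The mean level of other genes of superficial and callosal neurons had a correlation of 0.39 or more with 5 of the 7 genes. A list of 18 such genes, of which 17 are in the table (Tle3 was not analysed here), was summarised in each cell by its mean log2(RPM + 1). The Spearman correlation with this mean was 0.52 for Lhx2, 0.48 for Rorb, 0.47 for Pou3f2, 0.44 for Cux2 and 0.39 for Cux1, and 0.25 for Mdga1 and -0.10 for Id2. Within pools the first 5 lay between 0.36 and 0.52. Cells with Lhx2 at 10 RPM or more held a summed level of the list between 1392 and 10018 RPM, with a median of 2551. The other cells held between 132 and 6366 RPM, with a median of 1539, so the groups overlapped. This sum weighs genes of high level most, and Ptn alone had a median of 616 RPM and a highest value of 7565 RPM. Of the 14 genes of the list with a read in at least 25 cells, 5 were at 0.3 or more with Lhx2 (7.33% of all genes), 5 with Rorb (3.48%), 4 with Cux2 (1.66%), 3 with Cux1 (9.05%), 1 with Pou3f2 (7.91%, so near the background), 0 with Mdga1 (5.24%) and 0 with Id2 (3.07%). Their median correlations were 0.19, 0.15, 0.18, 0.15, 0.15, 0.14 and -0.02 in this order, where those over all genes were 0.085, 0.013, 0.011, 0.095, 0.093, 0.048 and 0.033.

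The members of that list did not move alike. Nectin3 followed Cux1 (0.68) and Lhx2 (0.50), and Rasgrf2, a marker of layer 2 and 3 neurons, followed Lhx2 (0.55), Rorb (0.42), Cux1 (0.34) and Cux2 (0.34). Ptn followed Rorb (0.60) and Lhx2 (0.51), and Plxnd1, a semaphorin receptor of callosal neurons, followed Lhx2 (0.49) and Rorb (0.40). Pou3f1 stood between 0.36 and 0.47 with Cux1, Cux2, Rorb and Lhx2. Lmo4, a LIM-only factor, stood between -0.18 and 0.17 with the 7 genes.

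Of 7 genes of layer 4, 4 are in the table (Kcnh5, Thsd7a, Unc5d and Btbd3). Their mean level stood at 0.36 with Cux1 and with Cux2, 0.31 with Lhx2, 0.30 with Pou3f2, 0.25 with Rorb, 0.07 with Mdga1 and -0.03 with Id2. With Rorb, itself a marker of this layer, the value was 0.00 within pools, while with Mdga1 it was 0.36. A list of 9 layer 5 genes stood at -0.28 with Cux1 and -0.31 with Mdga1, at -0.34 and -0.25 within pools, at -0.23 with Lhx2, and between -0.13 and 0.07 with the others. Cells with Cux1 at 10 RPM or more had a summed level of these genes between 4.32 and 4099 RPM, with a median of 295, and the other cells between 9.94 and 3075 RPM, with a median of 932. Of the layer 5 genes in this sum, Pcp4 alone had a median of 151 RPM and a highest value of 4083 RPM. Of 9 layer 6 genes, the mean stood at 0.33 with Pou3f2 and 0.24 with Mdga1 (0.29 and 0.07 within pools), and between -0.01 and 0.10 with the others.

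Of the 7 genes, Lhx2 had the strongest relation to the class of neuron, by the mean level of the lists. With 6 genes of excitatory neurons its correlation was 0.63 (0.51 within pools). Of the 6, 5 stood at 0.3 or more, where 7.33% of all genes did. These included Camk2a at 0.62, Slc17a7 (the vesicular glutamate transporter VGLUT1) at 0.46 and Emx1 at 0.44, while Neurod6 stood at 0.19. The same list stood at 0.28 with Rorb, 0.23 with Pou3f2, 0.20 with Mdga1, 0.15 with Cux1, 0.05 with Id2 and -0.14 with Cux2. With 15 genes of inhibitory neurons Lhx2 stood at -0.46 (-0.39 within pools), Rorb at -0.21 and the others between -0.09 and 0.14. Of these genes, 9 had a read in at least 25 cells. With Lhx2, 0 of the 9 stood at -0.3 or less, and their median was -0.20. With Cux1, 3 of the 9 stood at 0.3 or more, where 9.05% of all genes did. These were Adarb2 (0.45), Vip (0.40) and Slc32a1 (0.38), at 0.29, 0.25 and 0.19 within pools. Cells with Lhx2 at 10 RPM or more held a summed level of the inhibitory genes between 5.80 and 6088 RPM, with a median of 92.8, and cells below held between 13.6 and 10234 RPM, with a median of 501. The pan-neuronal genes stood at 0.37 with Lhx2 and between -0.18 and 0.20 with the others, and their part in the Lhx2 values was not tested.

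RNA of other cell types moved with some of the genes. The mean of 7 microglial markers stood at 0.40 with Cux1 and 0.33 with Pou3f2. Of these markers, 3 had a read in at least 25 cells (C1qb, C1qc and Aif1). All 3 were at 0.3 or more with Cux1, where 9.05% of all genes were. Within pools, the mean of the 7 markers stood at 0.04 with Cux1 and 0.06 with Pou3f2. The summed level of the 7 markers was between 0 and 3408 RPM in cells with Cux1 at 10 RPM or more, with a median of 46.7, and between 0 and 7205 RPM in the other cells, with a median of 10.6. Lhx2 stood at -0.26, Cux2 at 0.04, Rorb at 0.17, Mdga1 at -0.09 and Id2 at 0.15, and within pools at -0.31, -0.30, 0.03, -0.23 and 0.09 in the same order. Astrocyte markers (8 in the table) stood between 0.05 and 0.20 with the 7 genes, those of the oligodendrocyte lineage (5) between -0.04 and 0.14, those of endothelial and mural cells (2, Flt1 and Rgs5) between -0.17 and 0.21, those of progenitors (2, Sox2 and Vim) between -0.17 and 0.10, and haemoglobin genes (4) between -0.24 and 0.22. The part of these RNAs in the values of the 7 genes was not tested.

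**Figure D5:**
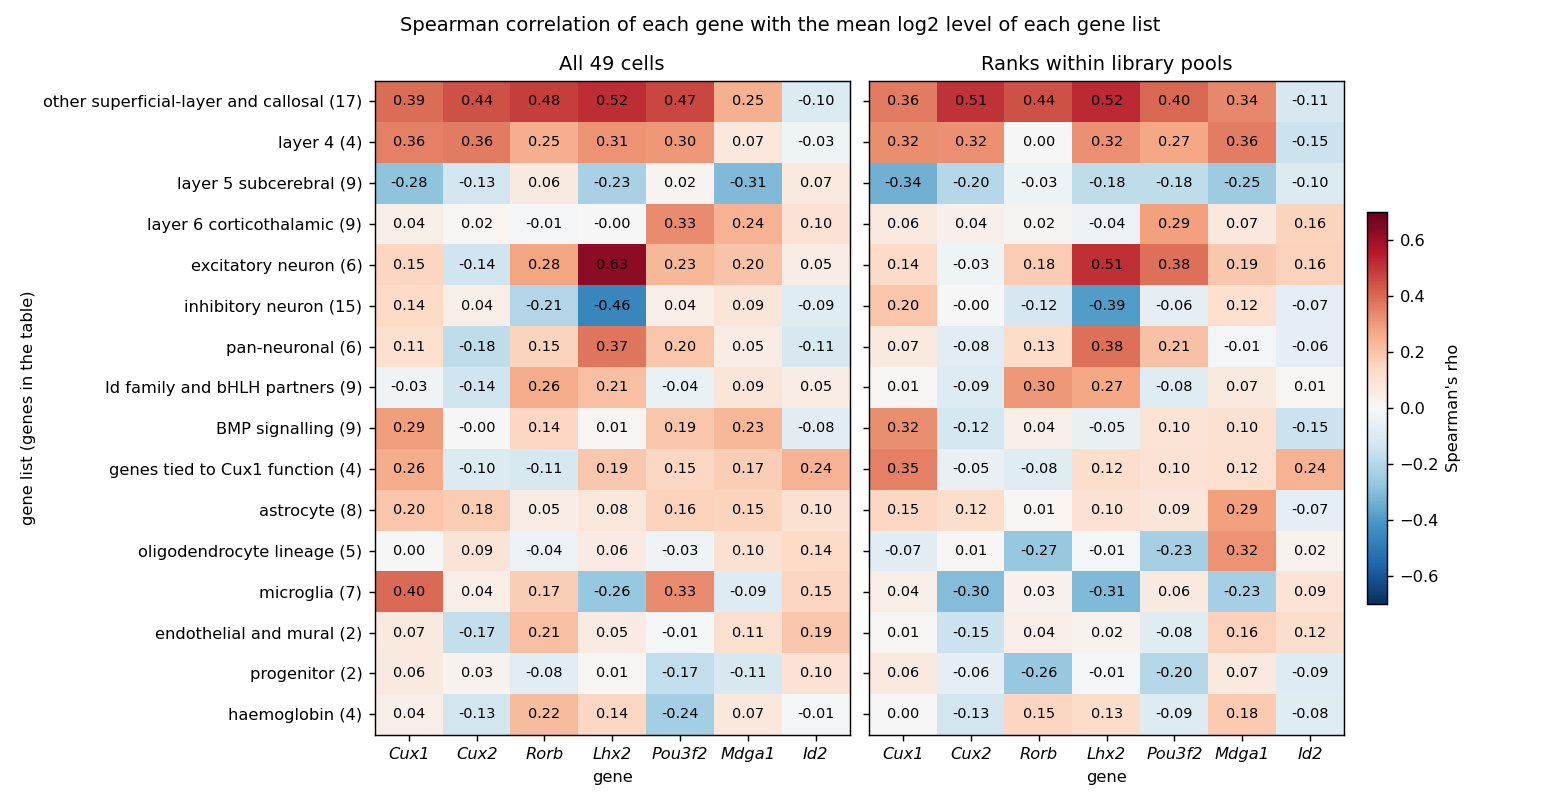
Spearman correlation over 49 cells between each of the 7 genes and the mean log2(RPM + 1) of each gene list, over all cells (left) and with ranks taken within library pools (right), with the number of genes of the list in the table in parentheses. The row of other superficial genes is positive for every gene but Id2 (-0.10), Lhx2 is positive with excitatory and negative with inhibitory genes, and the microglial value of Cux1 falls from 0.40 to 0.04 within pools.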

How the data were processed

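FT-labelled neurons were aspirated singly. The SMART-Seq v4 3′ DE kit, which reads transcript ends and has no molecular identifiers, gave the cDNA. The authors aligned the reads to GRCm38 (mm10) with STAR, counted them per gene with HTSeq and deposited RPM values; tool versions and the annotation are not given in the sources used here. The kit marks each cell within a pool, so reads can pass between cells of a pool.

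Values were divided by the size of 1 read in each cell, taken from the lowest values and refined on the low ones. Of 314114 values above 0, 100% came within 0.01 of a whole read. Levels are RPM, and logarithms used a pseudocount of 1. Detection meant at least 1 read or at least 10 RPM, with exact Clopper-Pearson intervals at 95%. The genes most like each gene were the 10 highest and 5 lowest Spearman correlations among genes with a read in at least 25 cells, and 0.3 was the limit described. Thinning drew 358412 reads from each of 44 cells, the 10th percentile of the totals. List levels are means of log2(RPM + 1). Summed levels, given beside some of them, weigh the genes of highest RPM most. The number of cells with both genes if unrelated is the product of their shares. With 1 sample, no test was run. The genes and lists were chosen with earlier results of these data known, and a limit from the exchange of reads was added after seeing the data. Alternatives were other limits and pseudocounts, thinning, edgeR's TMM factors on the recovered reads, values without haemoglobin and mitochondrial genes, ranks within pools, and leaving out each pool. The recovery, intervals and correlations were tested on simulated data. Promoter windows are from RefSeq (GRCm38.p6) and positions from GENCODE M21. The tools were edgeR 4.0.16 in R 4.3.3, and matplotlib 3.10.9, pandas 2.3.3, numpy 2.4.6 and scipy 1.17.1 in Python 3.11.15. A few genes that these rules would name are not reported here.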

Additional observations from a re-analysis of the deposited data

How the results depend on the processing

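The shares of cells depended on the limit. From at least 1 read to at least 10 reads, they became 59.2% for Cux1, 57.1% for Cux2, 75.5% for Rorb, 51.0% for Lhx2, 46.9% for Pou3f2, 24.5% for Mdga1 and 81.6% for Id2. In the same order, at least 10 RPM gave 53.1%, 48.98%, 61.2%, 38.8%, 38.8%, 22.4% and 73.5%, at least 100 RPM gave 32.7%, 12.2%, 34.7%, 24.5%, 20.4%, 8.16% and 46.9%, and reads above the 99th percentile of exchange gave 36.7%, 36.7%, 46.9%, 36.7%, 34.7%, 22.4% and 44.9%. At least 1 RPM gave 42.9% for Mdga1, and equal depth gave 42.3% for Mdga1 and 78.8% for Cux2. Leaving out each pool gave between 97.3% and 100% for Rorb and between 70.3% (without pool 1) and 87.5% (without pool 4) for Pou3f2. The other 44 of 77 alternative shares stayed within the interval of the main share.

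The 56 alternative medians stayed within their intervals, which are wide. Leaving out a pool moved the median by over 1.5 times for Cux1, Cux2, Rorb, Mdga1 and Id2, with ranges of 3.97 to 36.7, 9.48 to 15.7, 17.6 to 54.4, 0 to 0.95 and 73.8 to 155 RPM, and equal depth gave 36.3 RPM for Cux1, 6.98 for Lhx2 and 0 for Mdga1. The 273 alternative correlations between the 7 genes and with the reads per cell moved by less than 0.2, and 20 of them changed sign, all where the main value was between -0.14 and 0.14. Correlations with lists moved more within pools, as from 0.40 to 0.04 for Cux1 and from 0.04 to -0.30 for Cux2 with microglial markers. The number of cells with both genes of a pair moved by more than 1.5 times in 67 of 168 alternatives, and the genes most like each gene changed most with ranks within pools, where 0 to 5 of 10 were shared. No paired analysis was possible because the cells form a single group and no test was made. Depth limits detection, since 1 read is worth up to 4.77 RPM.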

Other observations

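Id2 inhibits bHLH factors, and its family and targets were described beside it. Of 14 such genes, 9 are in the table. Their mean log2(RPM + 1) stood at 0.05 with Id2, 0.26 with Rorb and 0.21 with Lhx2, and between -0.14 and 0.09 with the others. The paralogues Id1, Id3 and Id4 had a read in 21, 18 and 16 cells and stood at 0.02, 0.23 and -0.09 with Id2. Among bHLH factors, Tcf4, a partner that ID proteins bind, was at 10 RPM or more in all 49 cells and stood at -0.11 with Id2, and Neurod2 and Neurod6 stood at 0.07 and -0.02. Neurod6 was at -0.42 with Cux1 and -0.47 with Cux2. Hes1, a repressor downstream of Notch, stood at 0.40 with Rorb (0.23 within pools).

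Id2 is a known target of BMP signalling in many cell types. Of 16 genes of this pathway, 9 are in the table, and none of them is a BMP ligand. Their mean stood at -0.08 with Id2, 0.29 with Cux1, 0.23 with Mdga1, 0.19 with Pou3f2, 0.14 with Rorb, 0.01 with Lhx2 and 0.00 with Cux2. The receptor Acvr1 stood at 0.42 with Cux1 and 0.47 with Pou3f2 (0.30 and 0.36 within pools), and Bmpr1a at -0.31 with Id2 (-0.29 within pools).

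Of 6 genes tied to Cux1 by its known roles in potassium channels and by cathepsin L, which cleaves the CUX1 protein, 4 are in the table. Their mean stood at 0.26 with Cux1 (0.35 within pools), 0.24 with Id2, 0.19 with Lhx2, 0.17 with Mdga1, 0.15 with Pou3f2, -0.10 with Cux2 and -0.11 with Rorb. Ctsl itself stood at 0.41 with Cux1, and the potassium channel genes Kcna1, Kcna2 and Kcnab1 at -0.09, 0.24 and -0.05.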
